A study of Rattus norvegicus with 2 samples.

Results

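The genes that carry lipid in glia and meninges, 8 of 25399 counted, were described across optic nerve cell groups of WT and Nuc1 rats. They were given as a list of symbols, namely Apoe, Apod, Clu, Abca1, Lpl, Fabp7, Fabp5 and Dbi, and each symbol was found once in the gene lists of both libraries. WT rats and Nuc1 rats, which carry a spontaneous insertion in Cryba1, were labelled postnatal day 7. For each genotype 1 library was made with a droplet kit that reads the 3′ end of transcripts. The title and the study call the source a mixed culture of optic nerve cells, whereas the labels describe a harvested and digested nerve. Which of these holds could not be told. The labels name no other allele or agent and do not say how many animals were pooled. After filters, 1963 WT cells with a median of 14050 unique molecular identifiers (UMIs, 1 for each captured transcript) and 1782 Nuc1 cells with a median of 16577.5 were kept, and 2 barcodes were shared by both libraries. A level is given as CPM, the UMIs of the gene per 1000000 UMIs of the cells summed. With 1 library per genotype no difference between genotypes had a replicate check, no p-value was computed, and all intervals are 95% intervals of counting error only.

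In the nervous system, lipids travel between cells in particles built mainly by glia. Apoe, Apod and Clu encode secreted apolipoproteins, Abca1 encodes the membrane transporter that loads cholesterol and phospholipid onto apolipoprotein E, and Lpl encodes lipoprotein lipase, which frees fatty acids from such particles. Inside the cell, fatty acids are bound by Fabp7 (brain lipid binding protein of radial glia and astrocytes) and by Fabp5 (epidermal type), and fatty acyl-CoA is bound by the protein of Dbi (acyl-CoA binding protein, also called diazepam binding inhibitor). Fibroblasts of the meninges, which sheathe the nerve, are also known to make apolipoproteins.

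Cells fell into 10 clusters, and the 8 genes were kept out of the genes used for clustering. Cluster 3, called astrocyte-like from Gfap, Aqp4 and Hspb1, held 107 WT and 342 Nuc1 cells. Clusters 0, 1, 2, 4 and 5 were rich in collagen transcripts and are compared by number: Igfbp5 and Rspo3 were among the leading genes of cluster 0 (640 WT and 382 Nuc1 cells), Actg2 and Penk of cluster 1 (604 and 233), Cldn11 and Thbd of cluster 2 (300 and 207), Inmt and Cyp26b1 of cluster 4 (54 and 366) and the division genes Top2a and Mki67 of cluster 5 (145 and 77). Cluster 6 expressed motile cilia genes (15 and 113), cluster 7 oligodendrocyte genes (52 and 16) and cluster 8 macrophage genes (24 and 22), and cluster 9 (22 and 24), led by Gldn and Fbln2, was given no name.

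The cluster names did not hold equally in both libraries. In cluster 8, 15 of the WT cells but only 2 of the Nuc1 cells had UMIs of at least 3 of 10 macrophage markers, and in cluster 7, 49 WT but 5 Nuc1 cells had UMIs of at least 3 of 9 oligodendrocyte markers. No ratio of genotypes is therefore given for clusters 7 and 8. Values for these types are those of the cells that passed the marker count, unless the whole cluster or its other cells are named. UMIs of the Y-linked genes Eif2s3y or Kdm5d were found in 1 WT cell and in 413 Nuc1 cells (23.2%). The labels do not give the sex of the animals. Levels of Clu, Apoe and Apod are given again below, in some clusters, for Nuc1 cells with none of these UMIs. Cryba1 itself had 0 UMIs in both libraries, which allows up to 0.0886 CPM in WT and 0.0865 CPM in Nuc1 cells, so the genotype labels could not be checked on this gene.

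Promoters are shown for Fabp7 and Dbi, whose levels across clusters ran closely together, and for Apod and Abca1, which did not follow them. Of the 8 genes, 5 had an entry in the RefSeq promoter table (assembly GRCr8), and the windows are the 150 bases before the transcription start on the gene's strand, 5′ to 3′. Capitals mark matches, on either strand, to 4 short motifs: the TATA box TATAAA, the CCAAT box CCAAT, the E-box CACGTG and the GC box GGGCGG. The Fabp7 window is chr20:37669456-37669605 (plus strand), the Dbi window chr13:33802619-33802768 (minus strand), the Apod window chr11:82936070-82936219 (plus strand) and the Abca1 window chr5:72596474-72596623 (minus strand).
Fabp7: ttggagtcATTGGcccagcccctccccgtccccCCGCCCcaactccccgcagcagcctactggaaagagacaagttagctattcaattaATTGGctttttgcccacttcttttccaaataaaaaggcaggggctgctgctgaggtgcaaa
Dbi: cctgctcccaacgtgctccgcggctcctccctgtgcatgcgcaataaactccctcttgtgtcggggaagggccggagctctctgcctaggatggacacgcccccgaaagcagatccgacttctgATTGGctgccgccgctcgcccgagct
Apod: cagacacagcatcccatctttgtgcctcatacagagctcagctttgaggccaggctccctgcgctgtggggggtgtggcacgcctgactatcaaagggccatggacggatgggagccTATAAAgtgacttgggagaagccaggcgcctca
Abca1: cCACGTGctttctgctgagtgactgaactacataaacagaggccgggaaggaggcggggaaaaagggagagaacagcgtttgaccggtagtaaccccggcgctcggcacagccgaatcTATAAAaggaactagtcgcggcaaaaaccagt

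The Apod and Abca1 windows held TATAAA starting 33 and 32 bases before the start, a motif held by 8.0% of the 33469 windows of this length. The Fabp7 and Dbi windows held CCAAT on the minus strand, which 23.5% of windows held, and the Fabp7 window also GGGCGG (26.0% of windows). The CACGTG of Abca1 was held by 3.74% of windows. Apoe also had an entry, with 3 windows that are not shown, and GGGCGG was the only one of these motifs found in them. These are matches of letters and not measured binding sites.

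The binding genes whose promoters are shown above, Fabp7 and Dbi, were highest in astrocyte-like cells of both libraries, and the study used both among its astrocyte markers. Dbi stood at 6799 CPM in WT and 6945 CPM in Nuc1 astrocyte-like cells, against 296 to 639 CPM in the 5 collagen-rich clusters of the WT library and 203 to 618 CPM in those of the Nuc1 library. Dbi was also found at 3130 CPM in WT and 3260 CPM in Nuc1 cells of motile-cilia cluster 6, and at 1539 and 1783 CPM in cluster 9. Cells with oligodendrocyte markers held 2524 CPM in 49 WT and 2841 CPM in 5 Nuc1 cells. Every astrocyte-like cell of both libraries held a UMI of Dbi. Dbi was the broadest of the intracellular carriers, since after each cell was thinned to 10000 UMIs it was found in 92.4% of WT and 82.5% of Nuc1 cells of cluster 0.

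Fabp7 was more restricted than Dbi, though not to astrocyte-like cells. It stood at 5500 CPM in WT and 6402 CPM in Nuc1 astrocyte-like cells, which held 90.1% of its WT UMIs in 5.45% of the cells and 90.0% of its Nuc1 UMIs in 19.2% of the cells. In motile-cilia cluster 6 it stood at 1295 CPM in WT and 1989 CPM in Nuc1 cells. After thinning, 86.7% of WT and 96.2% of Nuc1 cells of cluster 6 had a UMI. Cells with oligodendrocyte markers held 915 CPM in 49 WT and 763 CPM in 5 Nuc1 cells. In the collagen-rich clusters other than cluster 5 it lay between 3.21 and 7.05 CPM in WT and between 13.3 and 17.6 CPM in Nuc1 cells. Gfap, the intermediate filament of astrocytes, was as scarce in these clusters: there were 0.574 to 1.67 Fabp7 UMIs per Gfap UMI in them in WT and 0.283 to 0.981 in Nuc1, against 0.796 and 0.656 in the astrocyte-like cells. The part of free RNA from astrocyte-like cells in the low Fabp7 level of the collagen-rich clusters was not tested.

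Fabp5 was also measured in dividing cells. It stood at 2081 CPM in WT and 2616 CPM in Nuc1 astrocyte-like cells. Among collagen-rich clusters the dividing cluster 5 held 427 CPM in WT and 352 CPM in Nuc1 cells, 2.35-fold and 2.33-fold over cluster 1 and 5.51-fold and 4.66-fold over cluster 0. Being at least 2-fold over each of clusters 0, 1, 2 and 4 in both libraries, as Fabp5 and Fabp7 were in cluster 5, was a property of 3.61% of the 10304 genes tested. For Fabp7 in cluster 5, 1 cell held 85.7% of the WT UMIs and 1 cell 45.6% of the Nuc1 UMIs, so that without these cells the level was 3.12 and 93.1 CPM. For Fabp5 the highest cell held 5.42% and 8.43%. Among astrocyte-like cells Fabp5 was not higher in dividing ones: those with UMIs of at least 3 of 6 division markers held 1604 CPM in 15 WT and 2431 CPM in 8 Nuc1 cells, and those with none 2388 CPM and 2644 CPM.

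**Figure D1:**
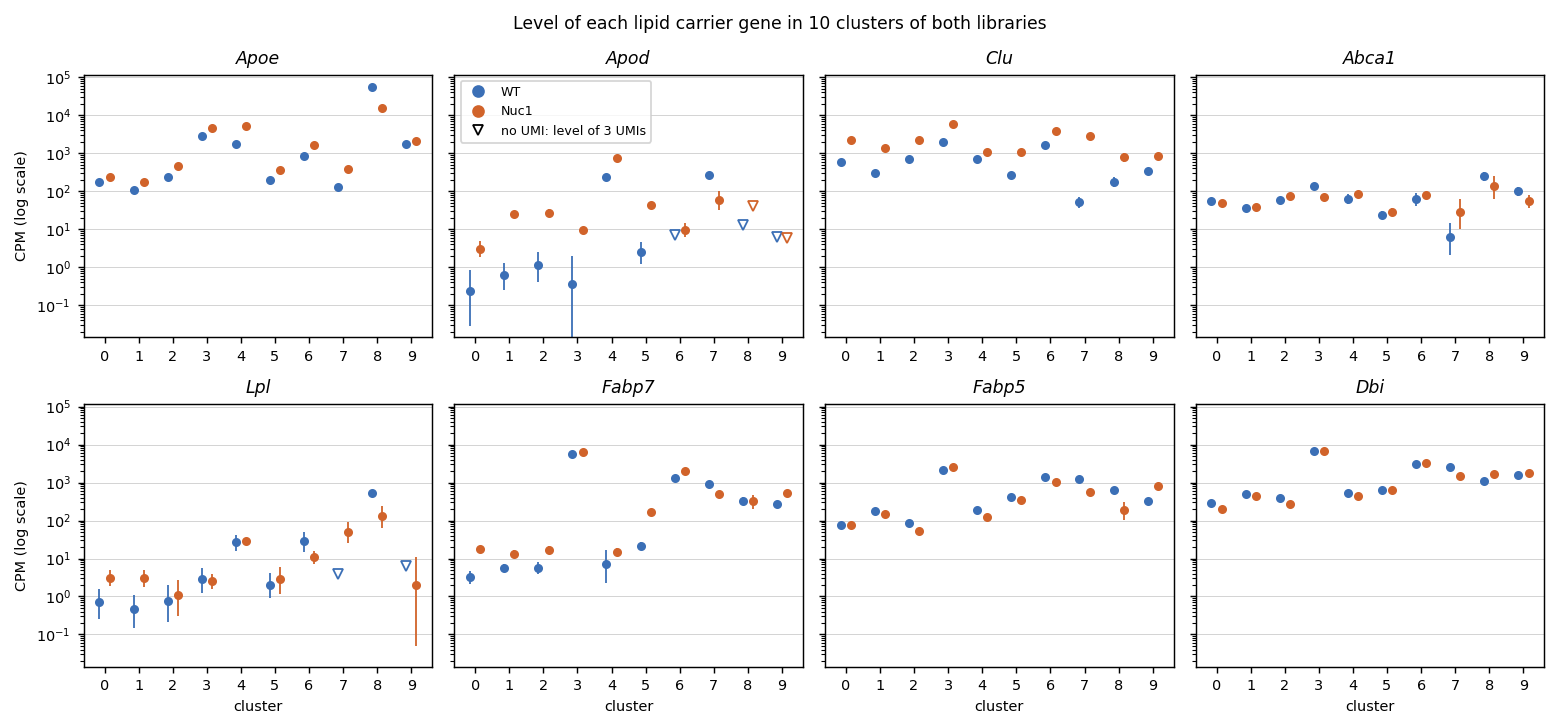
Level of each gene (CPM, log axis) in clusters 0 to 9 of the WT (blue) and Nuc1 (orange) library; bars are 95% Poisson intervals, and an open triangle stands at the level of 3 UMIs where none was counted. Fabp7 and Dbi peak in cluster 3, Apod in cluster 4 of the Nuc1 library, and Apoe in cluster 8, where only 15 WT and 2 Nuc1 cells had macrophage markers.

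Apoe was highest in macrophage-marked cells. In the WT library the 15 cells of cluster 8 with macrophage markers held 66042 CPM (64928 to 67170) of Apoe, against the 2936 CPM of WT astrocyte-like cells. Their median cell had 53404 CPM, the highest 155294 CPM, and 14 of the 15 had a UMI, so the level was shared by most of them. The 9 other WT cells of cluster 8 had 59.3 CPM, from 2 UMIs, and the 2 Nuc1 cells with macrophage markers had 1967 and 75220 CPM.

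The next highest levels of Apoe were in astrocyte-like cells, with 2936 CPM in WT and 4539 CPM in Nuc1, and in cluster 4, with 1803 CPM in WT and 5317 CPM in Nuc1 cells. Cluster 9, with 1801 CPM in WT and 2130 CPM in Nuc1 cells, did not differ from cluster 4 beyond the counting interval in WT, and 1 cell held 49.9% and 38.9% of its UMIs. The order of astrocyte-like cells and cluster 4 was not the same in the libraries, since astrocyte-like cells were 1.63-fold over cluster 4 in WT and 0.854-fold in Nuc1. Clusters 0, 1, 2 and 5 held 107 to 233 CPM in WT and 178 to 455 CPM in Nuc1 cells. Oligodendrocyte-lineage cells were nearly devoid of Apoe: of the 101 UMIs in WT cluster 7, 1 cell held 93.1%, and without it the level was 9.52 CPM.

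Apod, the apolipoprotein of the lipocalin family, was highest in cluster 4 of the Nuc1 library. It stood there at 240 CPM in WT and 774 CPM in Nuc1 cells, and cluster 4 held 42.1% of the WT and 90.4% of the Nuc1 UMIs of the gene. A further 51.5% of WT UMIs were in cluster 7, at 265 CPM, which did not differ from WT cluster 4 beyond the counting intervals. In each of these WT clusters 1 cell held much of the UMIs, 65.9% in cluster 7 and 49.4% in cluster 4, and the levels without that cell were 98.2 and 125 CPM. Outside clusters 4 and 7, Apod was at most 2.57 CPM in WT and 43.1 CPM in Nuc1 clusters, and no UMI was found in macrophage-marked cells of either library (0 UMIs in 15 WT cells allows up to 14.8 CPM).

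Lpl was a gene of few UMIs, 188 in WT and 277 in Nuc1 cells. In the WT library 126 of them were in the 15 cells with macrophage markers, at 621 CPM, although 1 cell held 54.8% of these. The 2 Nuc1 cells with macrophage markers had 344 CPM, from 10 UMIs that were all in 1 cell. Cluster 4 held 26.8 CPM in WT and 28.2 CPM in Nuc1 cells, and clusters 0, 1, 2 and 5 held 0.459 to 2.05 CPM and 1.09 to 3.11 CPM. Motile-cilia cluster 6 held 28.6 CPM in WT, from 12 UMIs, and 11.0 CPM in Nuc1 cells. In WT it did not differ from cluster 4 beyond the counting interval. The whole of Nuc1 cluster 7 held 51.4 CPM, from 11 UMIs. Apoe, Apod and Lpl were thus the 3 of the 8 genes that were at least 2-fold higher in cluster 4 than in each of clusters 0, 1, 2 and 5 in both libraries, as 2.89% of 10304 genes were. The lowest of these folds was 7.75 for Apoe, 18.0 for Apod and 9.05 for Lpl.

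Clu, which encodes clusterin, was found in every group. It stood at 1977 CPM in WT and 5800 CPM in Nuc1 astrocyte-like cells, at 1626 and 3855 CPM in the motile-cilia cluster 6, and at 262 to 725 CPM in WT and 1069 to 2281 CPM in Nuc1 collagen-rich clusters. The lowest level was in the cells with oligodendrocyte markers, 51.3 CPM in 49 WT cells and 11.7 CPM, from 1 UMI, in 5 Nuc1 cells. Clu, Fabp7, Fabp5 and Dbi were the 4 of the 8 genes at least 2-fold higher in astrocyte-like cells than in each collagen-rich cluster of both libraries, a property of 6.66% of 10872 genes. Apoe failed that rule through cluster 4.

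Abca1 loads lipid onto the secreted carriers. In the WT library it was highest in the 15 macrophage-marked cells, at 291 CPM, then in astrocyte-like cells, at 134 CPM. WT cluster 9, at 100 CPM, did not differ from astrocyte-like cells beyond the counting interval. In the WT collagen-rich clusters Abca1 lay between 24.4 and 62.1 CPM. In the Nuc1 library the 2 macrophage-marked cells had 344 CPM, from 10 UMIs. Astrocyte-like cells there had 72.2 CPM, cluster 2 had 73.5 CPM, cluster 6 had 77.7 CPM and cluster 4 had 86.7 CPM. Of these, astrocyte-like cells did not differ from cluster 2 or cluster 6 beyond the counting intervals. Cells with oligodendrocyte markers held 6.42 CPM in WT, from 5 UMIs.

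Between the genotypes, Clu had the largest ratio in astrocyte-like cells of the members with at least 100 UMIs there. In astrocyte-like cells the Nuc1 level was 2.93-fold the WT level (log2 ratio 1.55, 1.51 to 1.59), and the median cell had 1601 CPM in WT and 4500 CPM in Nuc1. Of the 6 members with at least 100 UMIs there, Clu was the 1 past 2-fold higher, and 1.74% of 7490 genes were. None of the 6 was past 2-fold lower, as 3.85% of genes were. The ratio of Clu exceeded that of 99.3% of the genes, whose median log2 ratio was -0.11.

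In the collagen-rich clusters the Clu ratio was as large or larger, except in cluster 4. The Nuc1 level was 3.78-fold the WT level in cluster 0, 4.54-fold in cluster 1, 3.05-fold in cluster 2 and 4.21-fold in the dividing cluster 5, but 1.51-fold in cluster 4. Cluster by cluster, the members past 2-fold higher were Clu and Fabp7 of 6 tested in cluster 0, Apod, Clu and Fabp7 of 7 in clusters 1 and 5, and Apod and Clu of 6 in cluster 2, where 2.07%, 1.57%, 1.21% and 1.73% of all genes were, in that order of naming. In those 4 clusters no member was past 2-fold lower, as 4.11%, 3.87%, 2.42% and 3.51% of genes were. Being past 2-fold higher in at least 4 of the 5 collagen-rich clusters was seen for Clu alone of 5 members tested and for 0.516% of 5620 genes. None of the 5 was past 2-fold lower in 4 of them, against 1.19% of genes. The share of cluster 0 cells with a UMI of Clu, after thinning, was 86.3% (82.9 to 89.2) in WT and 97.0% (94.4 to 98.6) in Nuc1.

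The Clu level of other cells and the markers that moved with it were as follows. Clu made up 595 CPM of all kept WT cells and 2831 CPM of all kept Nuc1 cells. In the 5 Nuc1 cells with oligodendrocyte markers, which had a median of 16106 UMIs, the level was 11.7 CPM with an upper limit of 65.4 CPM. In the Nuc1 cells of cluster 8 it was 792 CPM in the 2 with macrophage markers and 769 CPM (536 to 1069) in the 20 others. These 20 cells had a median of 1699.5 UMIs. In WT cells of cluster 8 it was 182 CPM in the 15 with macrophage markers and 148 CPM in the 9 others, and no ratio was read from these cells. The 11 other Nuc1 cells of cluster 7 had 4663 CPM. The part of free RNA in the Clu ratios was not tested. Summed CPM of 8 fibroblast markers was lower in the Nuc1 library in the same clusters, 6499 against 12463 in cluster 0 and 7687 against 13456 in cluster 1, and the part of that difference in the Clu ratio was not tested.

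Clu was also read in cells split by UMIs of the Y-linked genes and of division markers. Among Nuc1 astrocyte-like cells, the 256 without a Y-linked UMI had 5548 CPM of Clu and the 86 with one 6469 CPM. The WT level was 1977 CPM. Eif2s3y and Kdm5d had only 901 and 204 UMIs over all kept Nuc1 cells, so a male cell can lack them. The part of sex in the Clu ratio was not tested. WT astrocyte-like cells held more dividing cells, with 280 CPM of 6 division markers against 27.1 CPM in Nuc1, and among cells with no UMI of these markers Clu was 2251 CPM in 58 WT and 6116 CPM in 266 Nuc1 cells.

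**Figure D2:**
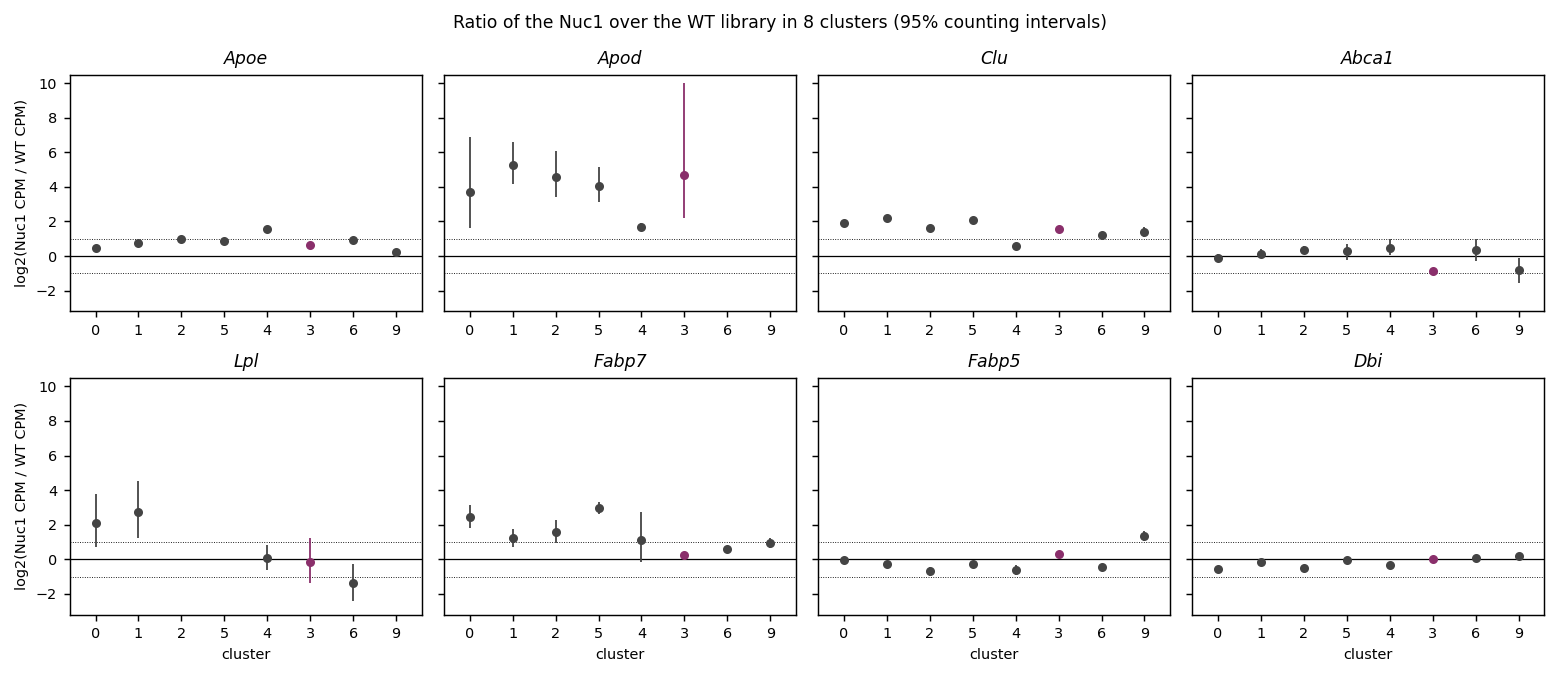
Log2 ratio of the Nuc1 over the WT level of each gene in clusters 0, 1, 2, 5, 4, 3, 6 and 9 (cluster 3, astrocyte-like, in purple), with 95% counting intervals; dotted lines mark 2-fold, and clusters with under 20 UMIs of the gene, or none in WT, have no point. Clu lies above 0 in all 8 clusters, and the interval of Abca1 lies below 0 in clusters 3 and 9 and above it in clusters 2 and 4.

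Apoe was also higher in the Nuc1 library, and most so in cluster 4, where Apoe and Apod were the 2 of 7 members tested past 2-fold higher, as 3.88% of 6422 genes were. None of the 7 was past 2-fold lower there, against 2.24% of genes. The Apoe level in cluster 4 was 2.95-fold the WT level (log2 ratio 1.56, 1.48 to 1.64), with a median cell of 1755 CPM in WT and 5042 CPM in Nuc1. In astrocyte-like cells it was 1.55-fold (log2 ratio 0.63, 0.59 to 0.66), and 3371 against 4570 CPM among cells with no UMI of a division marker. In clusters 0 and 1 the summed level was 1.39-fold and 1.66-fold, but the median cell was lower in Nuc1, 78.1 against 85.7 CPM in cluster 0 and 42.4 against 50.4 CPM in cluster 1, and 1 Nuc1 cell held 10.7% and 10.8% of the UMIs. Without the Nuc1 cells that held Y-linked UMIs, the Nuc1 level of Apoe was 5014 CPM in cluster 4 and 4484 CPM in astrocyte-like cells. It was 222 CPM in cluster 0, 151 CPM in cluster 1, 438 CPM in cluster 2 and 306 CPM in cluster 5.

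Apod was higher in the Nuc1 library in the same cluster 4. The Nuc1 level there was 774 CPM against 240 CPM (log2 ratio 1.69, 1.47 to 1.92), and 1 WT cell held 49.4% of the 170 WT UMIs, without which the WT level was 125 CPM. After thinning, 46.0% (31.8 to 60.7) of 50 WT and 65.3% (59.8 to 70.5) of 320 Nuc1 cells of cluster 4 had a UMI. In clusters 1, 2 and 5, where the Nuc1 level was 24.9 to 43.1 CPM and the WT level 0.642 to 2.57 CPM, 10 to 12 Nuc1 cells held all Nuc1 UMIs, and the highest single cell held 33.0% to 55.0% of them. Without the Nuc1 cells that held Y-linked UMIs the Apod level was 744 CPM in cluster 4, 20.4 CPM in cluster 1, 27.4 CPM in cluster 2 and 50.6 CPM in cluster 5.

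Abca1 had the opposite sign in astrocyte-like cells. It stood at 134 CPM (121 to 149) in WT and 72.2 CPM in Nuc1, a log2 ratio of -0.89 (-1.08 to -0.71), short of 2-fold, and 4.91% of genes had a lower ratio. The share of thinned cells with a UMI was 61.9% (51.9 to 71.2) of 105 WT and 48.1% (42.5 to 53.8) of 320 Nuc1 cells. The level was also lower in Nuc1 among cells poor in fibroblast transcripts, 68.1 against 130 CPM, and among cells with no division marker, 69.6 against 131 CPM. In cluster 2 the ratio was 1.27-fold and in cluster 4 it was 1.40-fold, both higher in Nuc1, while in cluster 9 the log2 ratio was -0.84 (-1.57 to -0.13), from 47 WT and 28 Nuc1 UMIs.

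The intracellular carriers differed by less than 2-fold in astrocyte-like cells. Dbi differed by 0.03 on the log2 scale (0.01 to 0.05), Fabp7 by 0.22 (0.19 to 0.24) and Fabp5 by 0.33 (0.29 to 0.37). With only the 28 WT and 177 Nuc1 astrocyte-like cells under a limit of 10% mitochondrial UMIs, the log2 ratio was 0.52 for Dbi, 1.04 for Fabp7 and 1.15 for Fabp5, and for Apoe it was 1.21. In collagen-rich clusters Dbi was at or below the WT level, by 0.54 on the log2 scale in cluster 0 and 0.05 in cluster 5, and Fabp5 was lower by 0.71 in cluster 2 and 0.62 in cluster 4.

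Over clusters 0 to 6 and 9, Apoe, Clu and Fabp7 were the 3 of 6 members tested whose Nuc1 level was over the WT level in each of the 8 clusters, against 6.59% of the 5237 genes with at least 20 UMIs in each. None of the 6 was under it in all 8, as 9.11% of genes were. For Fabp7 in collagen-rich clusters 0, 1, 2 and 4 the ratio to Gfap is given above, and in cluster 5 there were 1.71 Fabp7 UMIs per Gfap UMI in WT and 2.59 in Nuc1.

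Among single astrocyte-like cells the levels spread widely. Between the 10th and 90th percentile of cells, Apoe ran from 502 to 7458 CPM in WT and from 864 to 9767 CPM in Nuc1, and Clu from 322 to 4896 CPM and from 1414 to 11026 CPM. Dbi was the most even, from 3323 to 11366 CPM and from 2715 to 11022 CPM. The 10% of cells richest in Apoe held 32.2% of its WT and 29.6% of its Nuc1 UMIs.

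Correlations between members were read within the astrocyte-like cells. Across cells thinned to 10000 UMIs, the correlation of Apoe with Clu was r = 0.71 over 105 WT cells and r = 0.57 over 320 Nuc1 cells, and that of Fabp7 with Dbi r = 0.46 and r = 0.53. Apoe had r = 0.55 and r = 0.34 with Fabp7 and r = 0.56 and r = 0.33 with Dbi, in WT and Nuc1 cells. Apoe and Abca1, carrier and transporter, were not correlated in WT cells (r = 0.02), where Abca1 had a median of 1 UMI per cell. Cells of 1 library share their source, and these values are a description.

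**Figure D3:**
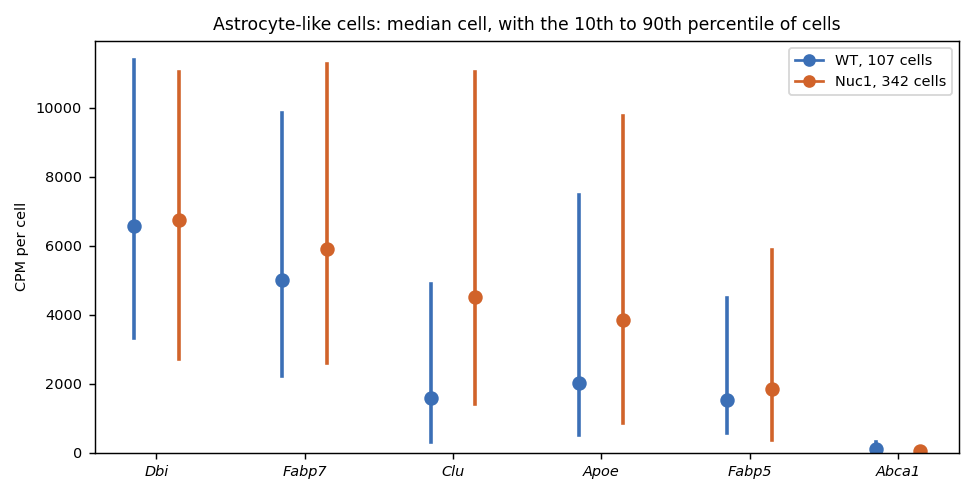
Level per cell (CPM, linear axis from 0) of 6 genes in the 107 WT (blue) and 342 Nuc1 (orange) astrocyte-like cells; the point is the median cell and the line runs from the 10th to the 90th percentile of cells. The Nuc1 median of Clu, 4500 CPM, lies near the WT 90th percentile of 4896 CPM, while the medians of Dbi, 6582 and 6740 CPM, are close together.

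The genes whose levels ran most like each member were found over 18 sums of cluster and library of at least 20 cells, as Pearson's r of log2(CPM + 10), among 6721 genes. Fabp7 ran most like Gpm6b (r = 0.98), Gfap (0.97) and Mt3 (0.96), and Dbi most like Fabp7 itself (0.95), Ckb (0.95) and Igsf11 (0.95). Fabp5 ran most like Dbi (0.93), then Eif1b (0.92) and Psat1 (0.91). The 3 binding genes thus shared 1 pattern, led by cluster 3.

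The secreted carriers shared no such pattern, with r = 0.14 between Apoe and Clu and r = -0.04 between Apoe and Apod, while Apoe had r = 0.83 with Abca1. Apoe ran most like Hsdl2 (0.90), Lamtor1 (0.88) and Blvrb (0.88), and Clu most like Gbp2 (0.85), Sdha (0.84) and Pdpn (0.83). Apod ran most like Nsg1 (0.92), Enc1 (0.82) and Trib2 (0.81). Lpl ran most like Cfd (0.93), Ninj1 (0.92) and the macrophage marker Tyrobp (0.92), and Abca1 most like LOC100909505 (0.91), Rnaset2 (0.87) and Oplah (0.87). The points share libraries and include cluster 8, whose 2 sums weigh on the r of Apoe, Abca1 and Lpl.

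Other genes of lipid handling were read from 6 lists of 73 genes, of which 71 had a unique symbol. In astrocyte-like cells 44 had at least 100 UMIs, 2 were past 2-fold higher in Nuc1 and 1 was past 2-fold lower, against 1.74% and 3.85% of all genes tested, with a median log2 ratio of -0.025 against -0.11 over all genes. Lipa, the lysosomal acid lipase, stood at 47.6 CPM in WT and 129 CPM in Nuc1 cells (log2 ratio 1.43, 1.17 to 1.71). Pmp2, a fatty acid binding protein of myelin, stood at 2.15 and 12.4 CPM, from 6 WT UMIs. Acsl1, which activates long-chain fatty acids to acyl-CoA, was the 1 past 2-fold lower, at 32.6 and 8.66 CPM. None of the 4 genes of cholesterol efflux, of the 5 lipoprotein receptors, of the 4 other apolipoproteins and transfer proteins or of the 10 genes of fatty acid oxidation passed 2-fold in these cells.

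The same lists were read in cluster 4, the cluster where the Apoe ratio was past 2-fold. Of 35 list genes with at least 100 UMIs there, 5 were past 2-fold higher in Nuc1 and 1 past 2-fold lower, against 3.88% and 2.24% of all genes tested, with a median log2 ratio of 0.17 against 0.06 over all genes. Pparg, the nuclear receptor that drives fat cell genes, stood at 9.88 CPM in WT and 41.9 CPM in Nuc1. Fabp4, the fat cell fatty acid binding protein, stood at 4.23 CPM, from 3 UMIs, and 20.2 CPM. Angptl4, an inhibitor of lipoprotein lipase, stood at 29.6 and 73.5 CPM, and Plin2, which coats lipid droplets, at 7.05 CPM, from 5 UMIs, and 17.4 CPM. Acsl1 was higher here, at 15.5 and 36.1 CPM, and Tspo, a protein of the outer mitochondrial membrane, was lower, at 148 and 72.7 CPM.

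In the other collagen-rich clusters the lists were read by gene. Past 2-fold higher in Nuc1 were 2 of 38 list genes in cluster 0, 2 of 39 in cluster 1, 1 of 35 in cluster 2 and 1 of 29 in cluster 5. Of all genes 2.07%, 1.57%, 1.73% and 1.21% were, in that order. Past 2-fold lower were 1, 2, 2 and 1 list genes, against 4.11%, 3.87%, 3.51% and 2.42% of all genes. Vldlr, which encodes a receptor of apolipoprotein E particles, stood at 74.0 CPM in WT and 27.7 CPM in Nuc1 cells of cluster 0 and at 27.9 and 5.78 CPM in cluster 1, and it was past 2-fold lower in clusters 0, 1, 2 and 5. Pltp, the phospholipid transfer protein, was past 2-fold lower in all 5 collagen-rich clusters when genes with at least 20 UMIs were read, and it stood in cluster 1 at 10.3 CPM in WT and 2.89 CPM in Nuc1 cells, and Fabp3, the heart type fatty acid binding protein, in cluster 2 at 14.5 and 7.11 CPM. Acbd4, a relative of Dbi, was past 2-fold higher in clusters 0, 2 and 5, at 9.64 and 27.3 CPM in cluster 0. Plin2 was past 2-fold higher in clusters 0 and 1, and Angptl4 in cluster 1. When genes with at least 20 UMIs were read, Plin2 was past 2-fold higher in all 5 collagen-rich clusters.

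**Figure D4:**
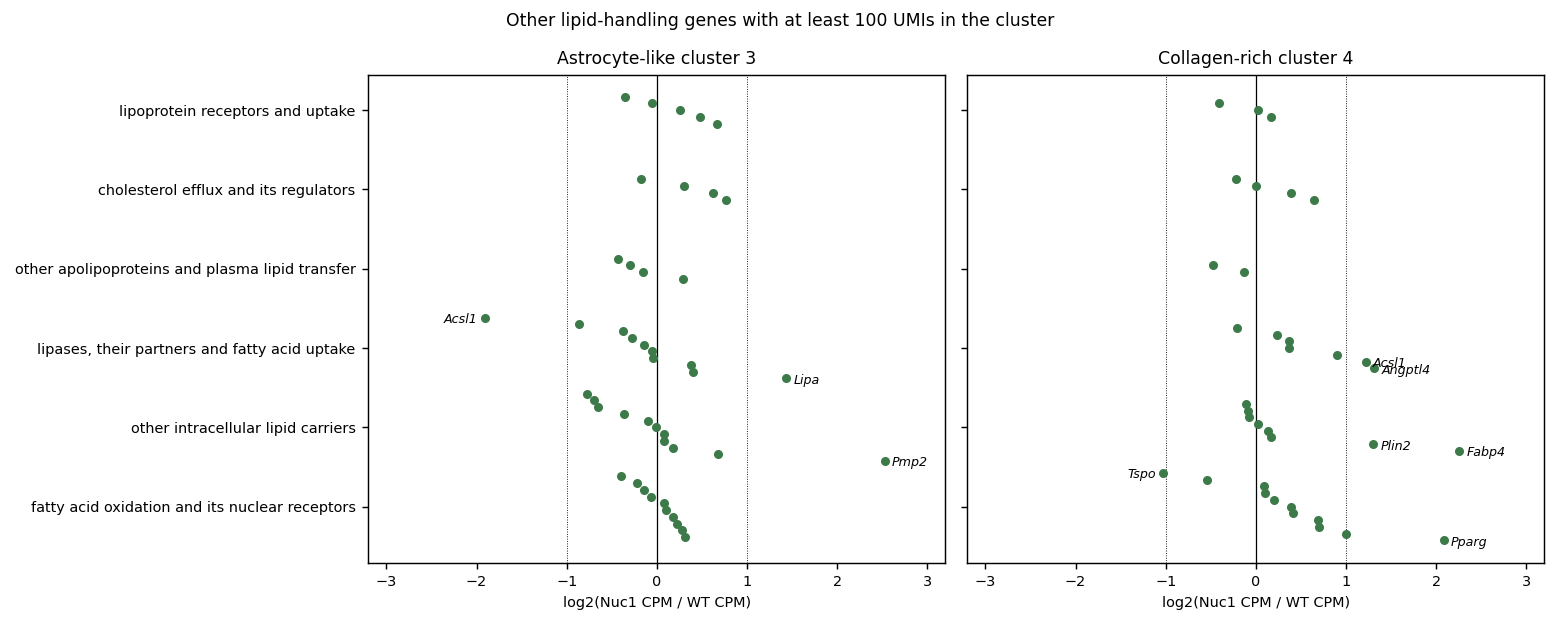
Log2 ratio of the Nuc1 over the WT level of the lipid-handling list genes with at least 100 UMIs, by list, in astrocyte-like cluster 3 (left, 44 genes) and collagen-rich cluster 4 (right, 35 genes); each point is a gene, dotted lines mark 2-fold, and genes counted as past 2-fold are named. Most genes lie within 2-fold in both clusters, and Acsl1 lies on opposite sides of 0.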

How the data were processed

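Optic nerve cells of WT and Nuc1 rats were sequenced in 1 library per genotype. The authors ran Cell Ranger 3.1.0 and STAR 2.7 (versions per the labels' processing notes, which also list Seurat 3.1.0 and 3.1.1) and deposited raw counts of UMIs per gene and barcode, without normalization. The genome build is not given in the sources used here. The WT library held 34517542 UMIs in 2107 barcodes and the Nuc1 library 35794685 in 1929.

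The filters on cells were a minimum of 500 genes and a limit of 20% of UMIs from 13 mitochondrial genes. Scrublet (scanpy 1.11.5, expected rate 2%) marked 5 of 1968 WT and 11 of 1793 Nuc1 cells, which were left out; this is fewer than expected, so doublets can remain. Libraries were integrated by anchors in Seurat 5.3.0 (R 4.3.3) on 2000 variable genes, of which 26 members and list genes were taken out, and clustered on 30 principal components at resolution 0.5 with seed 1. A cluster was called astrocyte-like with at least 3 astrocyte markers among its 20 leading genes, and collagen-rich with over 5000 CPM of fibroblast markers. UMIs were summed per cluster and library. Intervals were exact Poisson for a level, exact conditional for a ratio and Clopper-Pearson for a share, at 95%. A count of 0 allows up to 3 counts. A gene was past 2-fold at a log2 ratio of 1 or more in size, with 0.5 UMIs added to each sum and scaled to depth, among genes with at least 100 UMIs in the cluster. The ratio step was run on simulated sums drawn as Poisson counts. These leave out the spread between cells, so the run does not show how the intervals hold for real sums.

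The members and lists were chosen with earlier results of these data known. Genes named are the members, Cryba1, marker genes, the 3 genes most like each member, and the 12 list genes past 2-fold. A further list gene is not reported here. The leading genes of clusters and the Y-linked genes were named after their values were seen. Alternatives were other filters, doublet rules, resolutions and clustering genes, no integration, no clustering, thinning to 10000 UMIs, and ratios rescaled with TMM factors from edgeR 4.0.16 or centred on the median gene. Leaving out Nuc1 cells with Y-linked UMIs, leaving out cells with a UMI of a division marker, and the marker counts in clusters 7 and 8 were added after the data were seen.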

Additional observations from a re-analysis of the deposited data

Results flagged for a closer look

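Of the members, 3 had Nuc1 over WT ratios whose counting intervals excluded 0 on opposite sides in astrocyte-like cells and a collagen-rich cluster. The share of all genes meeting this rule was not computed. For Abca1 the log2 ratio in astrocyte-like cells was 1.38 lower than in cluster 4 (a difference of -1.38), for Fabp5 it was higher by 1.04 than in cluster 2, and for Dbi it was higher by 0.57 than in cluster 0. With 1 library per genotype these differences were not tested, and no explanation was weighed. The astrocyte-like log2 ratio of Dbi was only 0.03. It ran from -0.063 to 0.52 over 15 alternatives, so its sign was not stable.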

How the results depend on the processing

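No paired analysis was possible because there was 1 library per genotype. In astrocyte-like cells, Clu alone passed 2-fold higher under every alternative but 3: a limit of 10% mitochondrial UMIs, which left 28 WT cells, gave 4 genes (Apoe, Clu, Fabp7 and Fabp5), and keeping doublets or leaving out high-UMI cells in place of Scrublet calls gave 2 each (Apod and Clu). No alternative put a member past 2-fold lower. The count of members with a median collagen-rich ratio past 2-fold, 3 as reported (Apod, Clu and Fabp7), was 5 with no clustering. No share of all genes was computed for this median rule or for any alternative, so these counts describe the members only. The count of list genes past 2-fold in astrocyte-like cells, 3 as reported, was 5 with the 10% mitochondrial limit, 5 with no clustering and 5 when genes with at least 20 UMIs were read. The cause of these moves was not tested, and the 10% limit also left fewer cells. The median collagen-rich ratio of Fabp7 turned to -0.34 when libraries were merged without integration. Over 15 alternatives the log2 ratio in astrocyte-like cells ran from 1.44 to 1.93 for Clu, from 0.44 to 1.21 for Apoe and from -0.99 to -0.58 for Abca1, and the median collagen-rich ratio of Clu from 1.60 to 2.0. Few cells limit the WT values of clusters 4, 6, 7, 8 and 9 and the Nuc1 values of clusters 7, 8 and 9.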
